A study of Homo sapiens with 26 samples.

Results

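Genes of cholesterol synthesis and of its SREBP control were followed in HCT116, a human colorectal cancer cell line. The 8 members (INSIG1, MSMO1, HMGCS1, SQLE, IDI1, FDFT1, SREBF1 and SC5D) were chosen from earlier readings of the same expression tables, so their expression values are a description and carry no test beyond the authors' deposited one. They are 8 of 26175 named genes in the assembled annotation. At least 1 expression table listed 6 of the 8, and none listed HMGCS1 or SC5D.

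The study perturbed ZBTB24, a zinc finger protein, and DNMT3B, an enzyme that methylates DNA, and mapped both by ChIP-seq. RNA-seq compared 3 libraries with a non-targeting hairpin (shNT) with 3 carrying a hairpin against ZBTB24 (shZBTB24). It also compared 2 FLAG-only libraries with 2 that express FLAG-ZBTB24, and 1 DNMT3B genetic knockout with 1 wild-type library that has no tag or hairpin. ChIP-seq with a FLAG antibody used 3 FLAG-ZBTB24, 2 FLAG-DNMT3B and 2 FLAG-only libraries, each with an input. Hairpin and FLAG lines were made with lentivirus and kept under puromycin selection, and each FLAG line grew from a single cell. The FLAG proteins are therefore added to cells that still have their own genes, and differences between clones cannot be told apart from those between FLAG groups. No label says whether the hairpin replicates were separate cultures, so the authors' p-values may measure technical spread. Each expression table gives 1 pooled value per group in FPKM, a read count scaled to transcript length and library size. The spread between libraries and their depth are therefore unknown.

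The tables check the perturbed genes only in part. No shZBTB24 row names ZBTB24, so the knockdown of its RNA could not be read. In the authors' deposited table for FLAG-ZBTB24, the locus that holds MICAL1 and ZBTB24 together rose from 17.8 FPKM to 155 FPKM (3.12 on the log2 scale, q = 0.0192). DNMT3B stands in the authors' deposited knockout table under a label that matches no sample, DNMT3BKOshZB, with a wild-type value of 21.1 FPKM and a second value of 6.46 FPKM. Rows with that label list 5 of 9 epithelial markers, whose wild-type values in the authors' deposited table were 839 FPKM for KRT8, 739 for KRT18, 179 for EPCAM, 27.3 for CDH1 and 8.39 for CDX2.

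Cells make cholesterol from acetyl-CoA in a long series of steps that starts with the mevalonate pathway and passes through squalene. The transcription factors SREBP1 and SREBP2, made from SREBF1 and SREBF2, switch these enzymes on when sterols are low. When sterols are plentiful, INSIG proteins hold SREBP and its escort SCAP in the endoplasmic reticulum, and INSIG1 is itself an SREBP target. Among the members, HMGCS1 makes HMG-CoA, IDI1 isomerises isopentenyl diphosphate, and FDFT1 makes squalene. SQLE oxidises squalene, MSMO1 removes methyl groups from the sterol ring, and SC5D introduces a late double bond.

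Promoter sequences are shown for the 3 members that fell after the knockdown and for SREBF2, the only gene of the pathway lists whose window held a sterol regulatory element. Each is the run of 250 bases before a RefSeq transcript start in GRCh38.p14, printed 5′ to 3′ on the gene's own strand. Capitals mark matches, on either strand, to a CCAAT box (CCAAT), a GC box (GGGCGG), an E-box (CACGTG) or the sterol element (TCACNCCAC). The core of a reported ZBTB24 site, CAGGACCT, was searched too. The windows are chr7:155297628-155297877 (plus strand) for INSIG1, chr4:165327419-165327668 (plus) for MSMO1, chr17:17836987-17837236 (minus) for SREBF1 and chr22:41832855-41833104 (plus) for SREBF2.
INSIG1: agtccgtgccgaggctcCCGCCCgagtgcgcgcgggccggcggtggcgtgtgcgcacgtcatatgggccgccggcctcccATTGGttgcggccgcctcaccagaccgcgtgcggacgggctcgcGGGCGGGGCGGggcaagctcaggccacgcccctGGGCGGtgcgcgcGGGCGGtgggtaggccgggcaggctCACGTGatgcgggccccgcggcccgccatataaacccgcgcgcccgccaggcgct
MSMO1: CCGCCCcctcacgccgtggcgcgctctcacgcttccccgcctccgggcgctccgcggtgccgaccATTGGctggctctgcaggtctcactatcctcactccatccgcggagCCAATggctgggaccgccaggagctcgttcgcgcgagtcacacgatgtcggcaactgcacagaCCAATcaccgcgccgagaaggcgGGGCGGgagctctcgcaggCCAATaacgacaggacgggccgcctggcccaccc
SREBF1: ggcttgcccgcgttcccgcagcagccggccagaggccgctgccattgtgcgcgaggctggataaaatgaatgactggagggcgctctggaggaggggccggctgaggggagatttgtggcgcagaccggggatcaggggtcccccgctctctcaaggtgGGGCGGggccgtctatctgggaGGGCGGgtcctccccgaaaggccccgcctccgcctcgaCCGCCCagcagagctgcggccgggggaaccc
SREBF2: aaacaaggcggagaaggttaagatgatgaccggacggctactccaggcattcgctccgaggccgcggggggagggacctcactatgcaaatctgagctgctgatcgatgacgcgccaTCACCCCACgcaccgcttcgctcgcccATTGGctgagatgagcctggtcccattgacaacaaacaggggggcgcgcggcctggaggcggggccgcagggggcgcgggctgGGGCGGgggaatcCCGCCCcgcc

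The MSMO1 window held 4 CCAAT boxes, at 34, 76 and 139 bases before the start and, on the other strand, at 185. INSIG1 held an E-box at 55 bases, 1 CCAAT box on the other strand at 170 and 5 GC boxes, of which those at 121 and 126 overlap by 1 base. SREBF1 held 3 GC boxes, at 31, 69 and 91 bases, and no CCAAT box. In SREBF2 the sterol element lay at 133 bases, next to a CCAAT box on the other strand at 106. The RefSeq table matched 6 of the 8 members and 41 of the 51 genes of the pathway lists described below. Some have more than 1 window, and a gene was counted where any of its windows held the motif.

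The CCAAT box stood in 5 of the 6 matched members and in 25 of the 41 list genes, against 32.0% of all 35116 windows. A GC box stood in 6 of 6 members and 37 of 41 list genes, against 42.6% of all windows. The E-box stood in 2 members (INSIG1 and SC5D) and 4 list genes, against 6.34% of windows. The sterol element was found in 0 members and 1 list gene, against 0.883% of windows, and CAGGACCT in 0 members and 0 list genes, against 1.29%. These shares are descriptive: the printed windows are 67.2% to 78.4% G and C, against a median of 58.0%, and some genes count with several windows. A match is not a bound site, and its absence says only that these letters are not in the window.

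After the ZBTB24 hairpin, 4 of the 8 members were listed and all 4 had lower values. INSIG1, the retention protein, fell from 57.4 FPKM in shNT to 20.9 FPKM in shZBTB24 in the authors' deposited table. This is a 2.75-fold lower value (log2 fold change -1.46, deposited q = 0.00493) and ranks 58th from the lowest among 1965 fold changes in the authors' deposited table. MSMO1, the sterol demethylation enzyme, fell from 54.4 to 25.2 FPKM in the same authors' deposited table (2.16-fold lower, log2 fold change -1.11, q = 0.00493).

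SREBF1, listed in a row that also names the microRNA gene MIR6777, fell in the authors' deposited table from 80.7 FPKM to 42.7 FPKM (1.89-fold lower, log2 fold change -0.92, q = 0.0285). SQLE had 56.6 FPKM in shNT and 38.6 FPKM in shZBTB24, a log2 difference of -0.55 that did not pass in the authors' deposited table (p = 0.0107, q = 0.144). The order of the log2 differences was therefore INSIG1, MSMO1, SREBF1 and SQLE, with no spread between libraries by which neighbours could be separated.

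Past the deposited q threshold of 0.05 were 3 of the 4 listed members, where 9.82% of the loci of the table were past it and lower, and 12.2% past it and higher. Of the 1965 loci of that table, 1907 had an unadjusted deposited p under 0.05, so these are shares of loci already low in p. The members were chosen from this contrast, so nothing is read from the count of members. The listed members had a median log2 fold change of -1.01, and the 884 lower loci of the table a median of -0.76. All 4 were well expressed: their shNT values lay between the 88.9th (MSMO1) and 92.4th (SREBF1) percentile of the listed loci. These are whole cultures, in which fewer cells of a type and less RNA per cell cannot be told apart. The epithelial cadherin CDH1 fell from 46.3 to 23.2 FPKM (q = 0.00493) and the intestinal factor CDX2 rose from 6.90 to 18.8 FPKM (q = 0.00493) in the same authors' deposited table. No other marker of 9 epithelial, 5 mesenchymal, 4 leukocyte and 3 hepatocyte genes was listed there, and the part of these changes in the members' values was not tested.

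**Figure D1:**
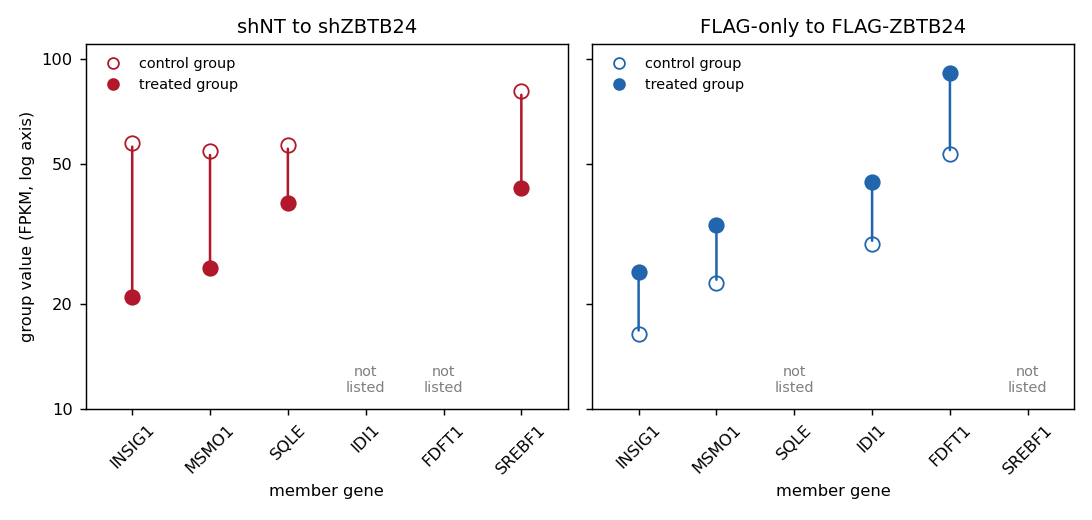
Deposited group values (FPKM, log axis) of the 6 members listed in a table, for shNT and shZBTB24 on the left and FLAG-only and FLAG-ZBTB24 on the right; open circles are the control group, filled circles the treated group, and each circle is 1 pooled value with no error. The 4 genes listed on the left are lower in shZBTB24 and the 4 listed on the right are higher in FLAG-ZBTB24.

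With added FLAG-ZBTB24, 4 members were listed and all 4 had higher values, none past the threshold. INSIG1 had 16.4 FPKM in FLAG-only and 24.6 FPKM in FLAG-ZBTB24 in the authors' deposited table (log2 difference 0.59, p = 0.171, q = 0.967). MSMO1 had 22.9 and 33.5 FPKM in the authors' deposited table (log2 difference 0.55, p = 0.179, q = 0.967). IDI1, the isomerase, had 29.5 and 44.5 FPKM in the authors' deposited table (log2 difference 0.59, p = 0.227, q = 0.967).

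FDFT1, the squalene synthase, had 53.5 and 91.1 FPKM in the authors' deposited table (log2 difference 0.77, p = 0.351, q = 0.997). Of these 4 members, 0 passed the deposited q and 0 had an unadjusted deposited p under 0.05. Over all loci, 0.228% of 1754 loci passed and were higher, 0.342% passed and were lower, and 174 loci had an unadjusted p under 0.05. The members' median of 0.59 compares with 0.73 for all 830 higher loci. By their deposited coordinates, the IDI1 locus covers 114 kb and overlaps 3 other named genes, IDI2, IDI2-AS1 and WDR37, and the FDFT1 locus overlaps CTSB. The SREBF1 locus of the knockdown table covers 156 kb and overlaps 5 others, RAI1 among them, so these values may hold reads of neighbours. Of the marker genes, 4 were listed there and none passed. CDH1 had 29.2 and 42.5 FPKM, KRT20 0.455 and 1.24 FPKM, VIM 0.487 and 0.716 FPKM, and the macrophage marker CD68 18.0 and 3.41 FPKM in the authors' deposited table. Their part in the members' values was not tested.

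INSIG1 and MSMO1 were the 2 members listed in both tables, lower with the hairpin and higher with the added protein. Only their knockdown values passed the threshold, and the 2 comparisons share no control libraries. Their levels in the 4 groups put the FLAG-only lines lowest for both genes, at 16.4 FPKM for INSIG1 and 22.9 FPKM for MSMO1 in the authors' deposited table, against 57.4 and 54.4 FPKM in shNT. It is not known whether the tables were normalised together, so this order across tables is only descriptive. Both tables listed 372 loci by symbol, of which 175 were lower with the hairpin. Of those 175, 76 (43.4%) were higher with FLAG-ZBTB24, as were 58 of the 197 (29.4%) that were higher with the hairpin.

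The 5 other loci nearest to INSIG1 and MSMO1 were found by the distance between their pairs of log2 fold changes and the members' median pair (-1.28 and 0.57), that is over 2 comparisons. They were NEURL1B, RASGRF1, FXYD2, C3 and FBN1, at distances of 0.0613 to 0.196 log2 units. NEURL1B, the closest, had log2 fold changes of -1.28 with the hairpin (q = 0.0113) and 0.51 with FLAG-ZBTB24 (q = 0.983) in the authors' deposited tables. FBN1, which encodes fibrillin, had -1.47 (q = 0.0316) and 0.51 (q = 0.997) in the authors' deposited tables. RASGRF1 (q = 0.342), FXYD2 (q = 0.0952) and C3 (q = 0.160) did not pass with the hairpin in the authors' deposited table, and none of the 5 passed with FLAG-ZBTB24. All 5 had shNT values under those of the members, from 0.787 FPKM (FBN1) to 6.23 FPKM (C3) in the authors' deposited table.

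**Figure D2:**
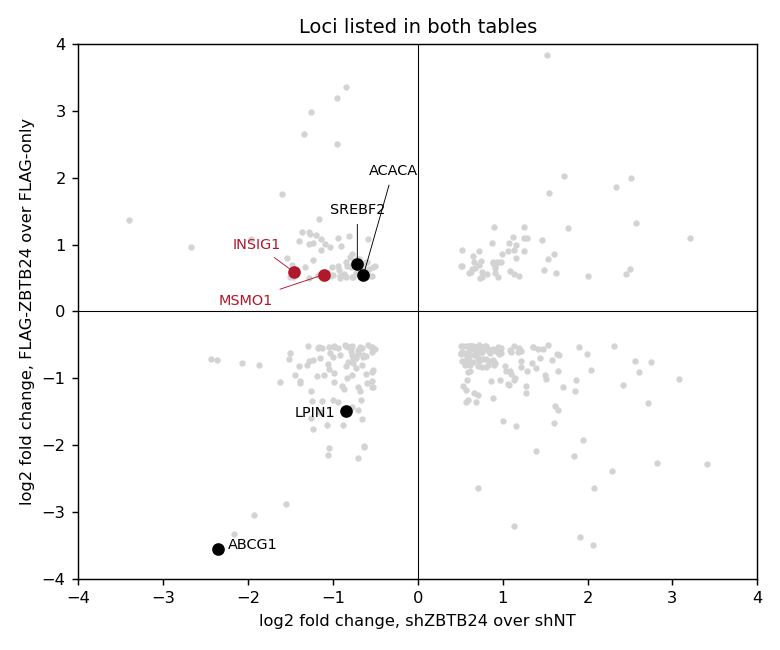
Deposited log2 fold changes of the loci listed in both tables, with shZBTB24 over shNT on the horizontal axis and FLAG-ZBTB24 over FLAG-only on the vertical axis; red points are members, black points are other genes of the pathway lists and grey points all other shared loci, and 3 loci lie outside the plotted range of 4 in either direction. The empty bands beside 0 come from the tables' floor of 0.5, and INSIG1, MSMO1, SREBF2 and ACACA lie in the upper left quadrant, LPIN1 and ABCG1 in the lower left.

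The wider pathway was read from 4 lists with 51 genes, 43 of them not members: 21 of cholesterol synthesis, 10 of SREBP regulation, 10 of sterol uptake, transport and efflux, and 10 of SREBP-linked fatty acid synthesis. The lists were drawn up with results of these data known. With the ZBTB24 hairpin 9 of the 51 genes were listed, all 9 lower, of which 4 fell and 5 did not pass. Of all 1965 listed loci, 884 were lower. The list genes had a median log2 fold change of -0.85, and -0.71 without the members. In cholesterol synthesis 2 of 21 genes were listed and 1 fell (MSMO1). In SREBP regulation 3 of 10 were listed and 2 fell (INSIG1 and SREBF1). In sterol transport 2 of 10 were listed and 1 fell (ABCG1), and in fatty acid synthesis 2 of 10 were listed and 0 fell. Of all listed loci, 9.82% passed and were lower, and a gene that was not listed has no value there.

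ABCG1, a sterol exporter of low level here, fell in the authors' deposited table from 0.714 FPKM to 0.139 FPKM (log2 fold change -2.36, q = 0.0285). SREBF2, the gene of the main SREBP of cholesterol synthesis, had 68.7 and 41.9 FPKM in the authors' deposited table and just missed the threshold (log2 difference -0.71, q = 0.0544). LPIN1, a phosphatidate phosphatase, had 11.0 and 6.09 FPKM in the authors' deposited table (log2 difference -0.85, q = 0.0515).

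With FLAG-ZBTB24, 13 of the 51 list genes were listed, 10 higher and 3 lower, with a median of 0.59. Of all 1754 loci, 830 (47.3%) were higher. None of the 13 passed the deposited q, and 3 had an unadjusted deposited p under 0.05. SREBF2 had 28.5 and 46.5 FPKM in the authors' deposited table (log2 difference 0.71, q = 0.741). ACACA, the acetyl-CoA carboxylase of fatty acid synthesis, had 24.8 and 36.1 FPKM there and 29.1 and 18.7 FPKM with the hairpin in the authors' deposited tables (log2 differences 0.54 and -0.64, q = 0.967 and 0.147). The 3 lower genes were ABCG1, LPIN1 and INSIG2.

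ABCG1 had 0.736 FPKM in FLAG-only and 0.0628 FPKM in FLAG-ZBTB24 in the authors' deposited table (log2 difference -3.55, q = 0.269). LPIN1 had 21.5 and 7.69 FPKM in the authors' deposited table (log2 difference -1.49, q = 0.409). Of the 6 list genes listed in both tables, 4 thus had opposite signs (INSIG1, MSMO1, SREBF2 and ACACA) and 2 were lower in both (LPIN1 and ABCG1). Among all 175 shared loci lower with the hairpin, 76 (43.4%) were higher with FLAG-ZBTB24. The lists were drawn up with results of these data known, so nothing is read from the 4 of 6. LSS, SCD and STARD4, named after their values were seen, were all higher with FLAG-ZBTB24 and absent from the knockdown table. Of these, the sterol carrier STARD4 had 12.4 and 29.4 FPKM (log2 difference 1.24, q = 0.437) and the stearoyl-CoA desaturase SCD 154 and 263 FPKM (log2 difference 0.77, q = 0.709) in the authors' deposited table.

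The table of the DNMT3B knockout listed 0 of the 8 members, and 0 also when its rows with the label DNMT3BKOshZB were added. Of the 51 list genes 6 were listed, as were 2243 loci in all, each of them higher than wild type. The 1112 rows labelled DNMT3BKOshZB are all lower and include DNMT3B, so the single direction of the first set may come from how rows were labelled and is not read as a result. With 1 library per group these are values of 2 libraries and no test of the knockout. The deposited q was under 0.05 for 0.312% of the loci and for 0 of the 6 genes, of which 2 had an unadjusted deposited p under 0.05. Of the 6 genes, the sterol exporters ABCA1 and ABCG1 were farthest from wild type in the authors' deposited table. ABCA1, named after its values were seen, had 0.204 and 3.77 FPKM (log2 difference 4.21), and ABCG1 0.749 and 8.09 FPKM (log2 difference 3.43). Both had low wild-type values. They ranked 473rd and 633rd highest of the 2243 loci, whose median log2 difference was 2.12.

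The desaturase gene FADS2 had values of 6.15 FPKM (wild type) and 24.8 FPKM (knockout), and LPIN1 of 3.83 and 10.1 FPKM, in the authors' deposited table. ABCG1 and LPIN1 were the 2 genes of the lists found in all 3 tables, lower with the hairpin and with FLAG-ZBTB24. Of those values only that of ABCG1 with the hairpin passed the deposited q. Every knockout row is higher than wild type, so their direction there is not read as a result. Markers of several cell types moved too. The mesenchymal gene VIM had values of 3.80 FPKM (wild type) and 629 FPKM (knockout) in the authors' deposited table. The epithelial gene KRT20, the mesenchymal gene PDGFRB, CD68 and ALB were also listed as higher. Under DNMT3BKOshZB the 5 epithelial markers were listed as lower (CDH1 27.3 and 6.10 FPKM, EPCAM 179 and 76.6 FPKM). The mesenchymal gene ACTA2 was lower there too (5.90 and 1.94 FPKM), in the authors' deposited table. The direction of a row goes with its label, so no direction is read from the marker lists. The part of the markers in the list genes' values was not tested.

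**Figure D3:**
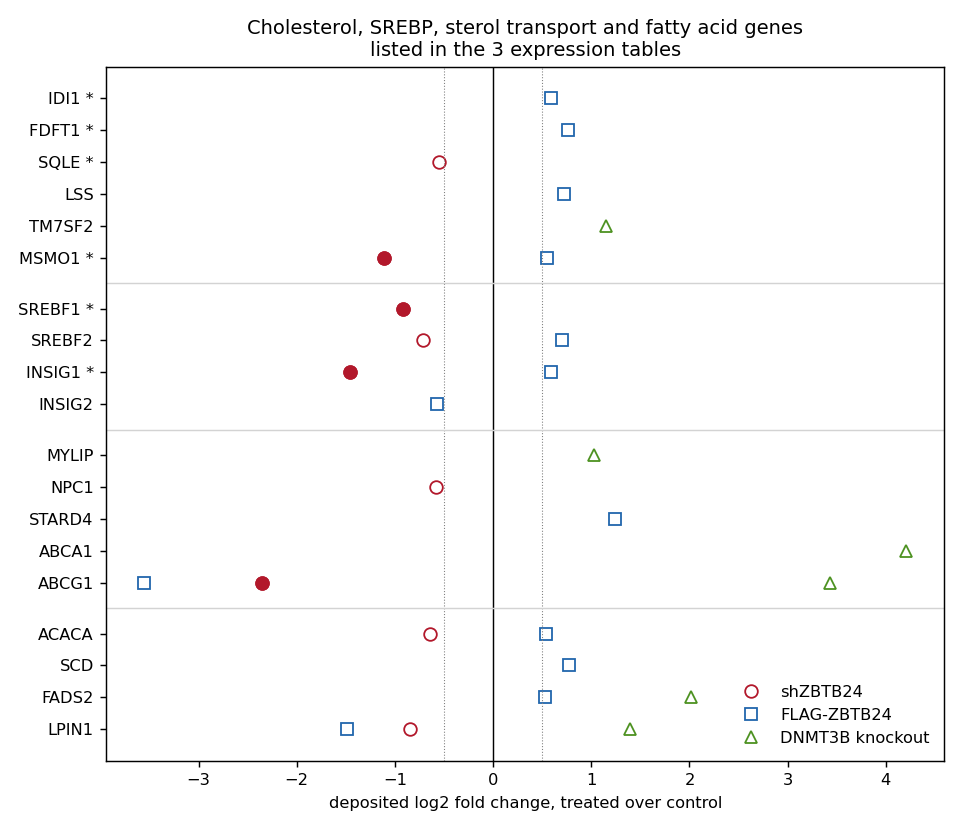
Deposited log2 fold changes (treated over control) of the 19 genes of the 4 pathway lists found in any table, one row per gene and grouped by list; circles are shZBTB24, squares FLAG-ZBTB24 and triangles the DNMT3B knockout, filled symbols have a deposited q under 0.05, stars mark members and dotted lines the floor of 0.5. Filled symbols occur for shZBTB24 alone, at MSMO1, SREBF1, INSIG1 and ABCG1.

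FLAG-ZBTB24 lay at the promoter of 1 of the 8 members, MSMO1, against 3.91% of all named genes. A peak counts for a promoter where its midpoint is at most 1000 bp from any transcript start in the hg19 annotation. The MSMO1 peak, at chr4:166247090-166248566 in hg19, is 1477 bp wide, the 5th widest of 6173 peaks whose median width is 191 bp. Its score, the authors' own, is 17.3 against a median of 8.26 and ranks 386th. The midpoint is 990 bp upstream of the MSMO1 start and the near edge 252 bp from it, so the peak just meets the rule and does not cover the start.

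The MSMO1 peak also overlaps an unnamed assembled transcript on the opposite strand, at chr4:166247804-166248449, whose start is 621 bp from the midpoint. The gene KLHL2 ends 2782 bp before the peak. No other member had a FLAG-ZBTB24 peak at its promoter or in its body, against 5.12% of all named genes with one in the body. From the nearest transcript start of each gene, the closest peak lay 43.2 kb from SC5D, 59.6 kb from FDFT1, 102 kb from SQLE and 110 kb from HMGCS1. It lay 228 kb from INSIG1, 334 kb from IDI1 and 388 kb from SREBF1, so INSIG1 and SREBF1, which fell with the hairpin, were among the 3 members farthest from one.

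In the wider lists FLAG-ZBTB24 lay at 3 of 51 promoters (5.88%), those of MSMO1, INSIG2 and ELOVL6. The share was 5.76% among 5242 genes listed in any expression table and 7.09% among 1537 genes listed with at least 10 FPKM in a control group, a background chosen after the values were seen. The INSIG2 peak, at chr2:118846440-118846467 in hg19, is 28 bp wide with a score of 7.08 and lies 403 bp downstream of a start. ELOVL6, a fatty acid elongase, had a peak of 247 bp at chr4:111119817-111120063, with a score of 11.6 and 120 bp from a start. That start is internal, and the midpoint lies 3.20 kb downstream of the first start, in an intron. INSIG2 was listed only with FLAG-ZBTB24, at 20.8 and 14.0 FPKM (log2 difference -0.57, q = 0.997) in the authors' deposited table.

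**Figure D4:**
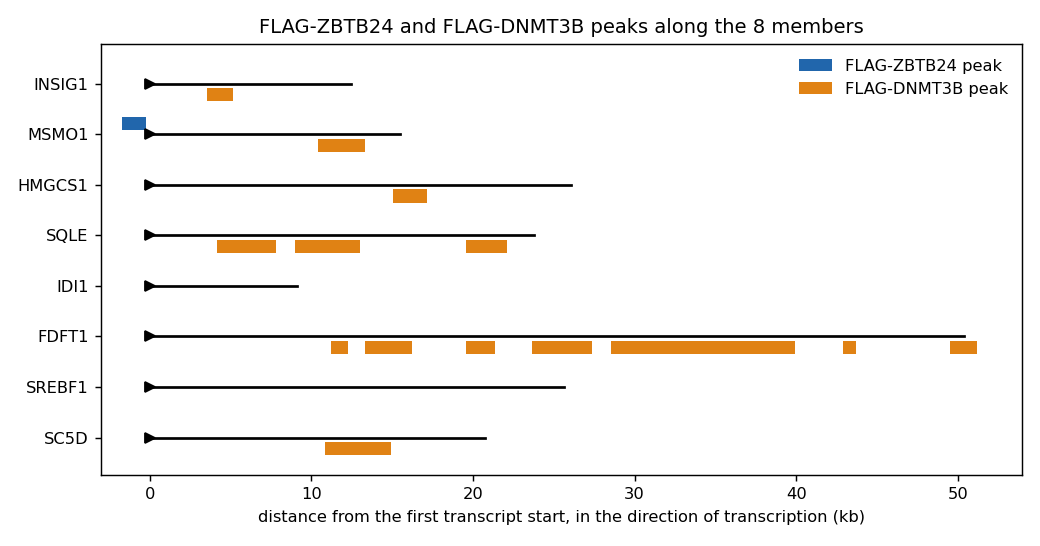
Peaks along the 8 members, each drawn from its first transcript start in the direction of transcription (kb, hg19 annotation); black lines are genes, blue bars FLAG-ZBTB24 peaks and orange bars FLAG-DNMT3B peaks at a promoter or in a gene body. The single blue bar lies before MSMO1, while IDI1 and SREBF1 carry no bar and FDFT1 carries 7.

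FLAG-DNMT3B lay in the body of 6 of the 8 members (75.0%), against 22% of all named genes, IDI1 and SREBF1 being the exceptions. A body peak has its midpoint inside a transcript and over 1000 bp from every start of the gene. The share was 31 of 51 (60.8%) in the wider lists, with 15 of 21 genes of cholesterol synthesis, 6 of 10 of SREBP regulation, 3 of 10 of sterol transport and 7 of 10 of fatty acid synthesis. Among genes listed in any expression table it was 21.5%, and among those with at least 10 FPKM in a control group 42.2%. Median gene length was 22.3 kb for the members, 23.8 kb for the lists, 20.3 kb for the genes with at least 10 FPKM and 18.5 kb for all genes. The share was thus higher among listed genes with at least 10 FPKM than among all listed genes. Listing depends on fold change, so these are not all expressed genes. The part of expression in the members' share was not tested.

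The members held 14 FLAG-DNMT3B peaks, 13 in bodies and 1 at a promoter, and 13 midpoints fell in introns and 1 in an exon. Their median score and that of all 15909 peaks were both 3.39, and their scores lay between 2.83 and 3.75. INSIG1 had a peak of 1639 bp at chr7:155093024-155094662 (hg19), in an intron 35.0% along the gene, with the members' highest score, 3.75. The MSMO1 peak, at chr4:166259253-166262164, is 2912 bp wide with a score of 3.46 and lies in an intron 76.7% along the gene, far from the FLAG-ZBTB24 peak upstream.

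HMGCS1 had an intron peak of 2141 bp at chr5:43296446-43298586 with a score of 3.40. SC5D had an intron peak of 4126 bp at chr11:121174224-121178349 with a score of 3.00. Neither gene was listed in an expression table. SQLE had 3 body peaks that cover 10.3 kb, 43.2% of the gene, and FDFT1 had 7 peaks that cover 22.6 kb, 44.9% of the gene, the widest of them 11437 bp.

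A FLAG-DNMT3B peak counted as a promoter peak in 1 member, FDFT1, against 2.22% of all named genes. Its midpoint is 619 bp from an internal start and 11.8 kb from the first start, so no member had a FLAG-DNMT3B peak at its first start. IDI1 and SREBF1 were 30.3 kb and 31.2 kb from their nearest FLAG-DNMT3B peaks. The 3 members that fell with the hairpin thus differed in their peaks: MSMO1 had both factors, INSIG1 FLAG-DNMT3B in its body, and SREBF1 neither.

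**Figure D5:**
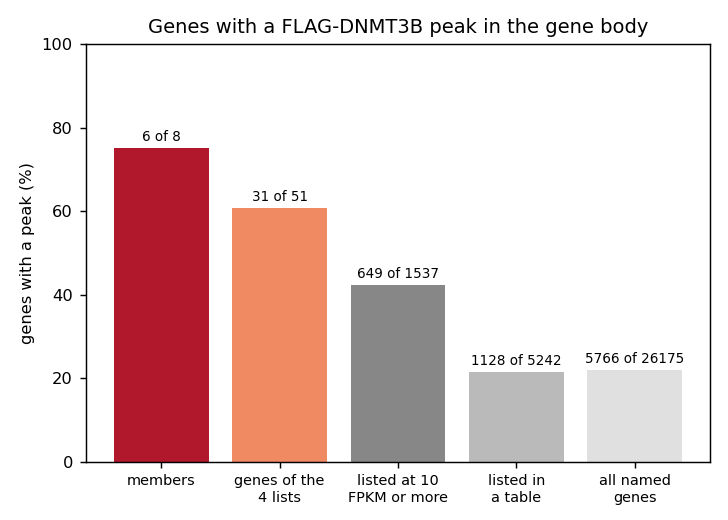
Share of genes (%) with a FLAG-DNMT3B peak in the gene body, for the members, the 4 lists, genes listed with at least 10 FPKM in a control group, genes listed in any expression table and all named genes; numbers over the bars are counts of genes. The bars run from 75.0% for the members over 60.8% for the lists and 42.2% for the listed genes with at least 10 FPKM to 22% for all genes.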

How the data were processed

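HCT116 RNA-seq and FLAG ChIP-seq files were read as deposited. MACS2, HISAT2, StringTie, Cufflinks and the build hg19 are named by the submitters' processing notes, without versions or roles. Per locus, the authors deposited 1 FPKM value for each group (replicates pooled), the log2 fold change, a p-value and a q-value. The tables list only loci past a log2 fold change of 0.5 (knockout 1). With shZBTB24 no listed locus had a deposited p above 0.0549, while the largest with FLAG-ZBTB24 was 0.839. The shZBTB24 table thus holds loci of low p only. Peak lists are merged per factor, with 1 score per peak deposited by the authors, its kind not given. No test was run here: a locus passed where the deposited q was under 0.05. The members and lists were chosen with earlier results of these data known. Named genes are the members, list genes past the threshold, in at least 2 tables or with a FLAG-ZBTB24 promoter peak, and the 5 loci most like the members, and ABCA1, LSS, SCD, STARD4, ACSS2 and ME1 were added after their values were seen. Rows were matched by symbol (comma-joined names split), peak midpoints were set against transcript starts of the merged annotation, and 250-base RefSeq windows (GRCh38.p14) were searched for 5 motifs. Some genes of the lists are not reported here and were left out of every count. Peaks and windows are of different builds and were not combined. Counting rules were tested on simulated data with Python 3.11.15, pandas 2.3.3 and numpy 2.4.6. Alternatives were other thresholds, pseudocounts, filters, promoter windows and peak scores.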

Additional observations from a re-analysis of the deposited data

How the results depend on the processing

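Under the alternatives tried, 47 recomputed summary values stayed within 1.5 times their main value and 6 did not. Many of the 47 are counts of 0 that stayed 0. A count of 0 has no range of 1.5 times, and a stricter filter could not raise it. For single members, 31 fold changes also stayed within 1.5 times their main value, but only the 16 with a pseudocount were recomputed. Those 16 were 0.952 to 0.999 times their main value. A filter keeps or drops a member and leaves its deposited fold change as it was, so the rest are no check of size. Pseudocounts and filters cannot turn the direction of a deposited fold change, so these values are no check of direction. At an unadjusted p under 0.05 in place of the deposited q, the list genes past the threshold numbered 9 in place of 4 with shZBTB24, 3 in place of 0 with FLAG-ZBTB24 and 2 in place of 0 in the DNMT3B knockout. With shZBTB24 this rule could hardly leave out a gene, because 1907 of the 1965 listed loci had an unadjusted deposited p under 0.05. With a promoter window of 500 bp, members with a FLAG-ZBTB24 promoter peak numbered 0 in place of 1 and members with a FLAG-DNMT3B promoter peak 0 in place of 1. With FLAG-DNMT3B peaks at or above the median score alone, members with a promoter peak numbered 0 in place of 1. Members past the threshold with shZBTB24 numbered 2 where loci with several symbols, such as that of SREBF1, were left out. No paired analysis was possible because the tables hold 1 pooled value per group, and for the same reason no replicate could be left out. The knockout table lists no member, so it gave no median. A gene absent from a table may have changed by less than its floor, been filtered or not been tested, and these cannot be told apart. Depth per library is unknown.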

Other observations

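The authors' deposited knockout table holds 1112 rows named DNMT3BKOshZB, a label of no sample used here. All are lower than wild type, and they name 3 genes of SREBP-linked fatty acid synthesis and no member. The acetyl-CoA synthetase gene ACSS2 had a wild-type value of 17.7 FPKM and a second value of 8.58 FPKM in the authors' deposited table (log2 difference -1.04). The malic enzyme gene ME1 had 21.8 and 9.81 FPKM (log2 difference -1.15), and ELOVL6 had 31.3 and 13.1 FPKM (log2 difference -1.26), in the same authors' deposited table. SREBF2, named here after its peaks were seen, held 2 FLAG-DNMT3B peaks in its body, the wider of 28811 bp with a score of 4.09, the 48th widest of 15909.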
